A study of Arabidopsis thaliana with 6 samples.

Results

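The plastid genome of Arabidopsis thaliana encodes 44 of the subunits and close partners of the photosynthetic complexes described here: 15 genes of photosystem II, 5 of photosystem I, 6 of the cytochrome b6f complex, 6 of the ATP synthase, 11 of the NDH complex, and rbcL for the large subunit of Rubisco. They were taken by gene identifier, as the psa, psb, pet, atp and ndh genes and rbcL. The deposited table holds 33557 genes, of which 133 are plastid genes, and all 44 were found in it and marked as tested by the authors. The psbN gene is included by its name, although its product is known as an assembly factor and not as a lasting subunit of photosystem II. The second copy of ndhB in the inverted repeat is not among the 44.

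Poly(A) RNA was sequenced from whole 7-day-old seedlings, with 3 libraries for the Col0 wild type and 3 for cbe1. Plants of both genotypes were raised on MS medium containing 1% sucrose, in days of 16 hours light and 8 hours dark. The CBE1 protein interacts with eIF4E, the translation factor that holds the cap of mRNAs. The sources used here give neither the kind of mutation nor the hour of harvest. The CBE1 transcript (AT4G01290) fell from 13.8 to 4.48 FPKM, a log2 fold change of −1.62, for which the authors' deposited table gives q = 1.41e-12. Rescaled to TPM, which adds 1.56 to every log2 fold change, that of CBE1 was −0.056 and the median of all genes 1.74. Relative to that median CBE1 was at −1.80 on either scale. The added 1.56 reflects summed FPKM of 5.65e+06 in Col0 and 1.91e+06 in cbe1 over all tested genes. The largest single value was 4.10e+06 FPKM in Col0 and 742040 FPKM in cbe1. A single gene thus weighs heavily in the TPM values given here and below. Green tissue and root markers were both detected. RBCS3B, for the small subunit of Rubisco, had 5964 FPKM in the wild type against 6890 in the mutant. LHCA1, for a light-harvesting protein, had 5615 against 5563, and LHCB2.1, for another, 1654 against 2461. None of the 3 tested green genes was called, and LHCB2.1 was higher at an unadjusted p below 0.05 by the Cuffdiff test. Of the 4 green genes RBCS1A was marked HIDATA and not tested. Of the root genes PYK10 had 2440 against 1583 and CASP1 19.4 against 29.8. None of the 5 root genes was called, 4 of them had the higher value in cbe1, and 2 were higher at an unadjusted p below 0.05 by the Cuffdiff test.

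FPKM expresses a gene's fragments relative to its length and to the size of the library. The table gives one FPKM value per gene and genotype, so no spread between the 3 libraries can be shown and the depth is unknown. A gene was called where the authors tested it and its q-value was below 0.05. The error given beside a log2 fold change of cbe1 over Col0 is that change divided by the authors' test statistic, and 95% intervals follow from it for a normal statistic. The median of all tested genes was itself at a log2 fold change of 0.18, a 1.13-fold rise. The labels number the libraries of a genotype without saying whether they came from separate cultures, so p-values may measure technical spread only.

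Chloroplasts transcribe their genome in units that often hold several genes, mainly through a bacterial-type RNA polymerase encoded in the plastid itself and guided by nuclear sigma factors, and partly through a phage-type polymerase encoded in the nucleus. The long transcripts are cut, spliced, edited and protected by nuclear-encoded RNA-binding proteins, so neighbouring genes of a unit can differ in RNA level. Plastid mRNAs carry no lasting poly(A) tail as cytosolic mRNAs do, and the tails they receive mark RNA for decay. What share of each plastid transcript the poly(A) purification kept was not measured in these libraries. In whole seedlings a change in the number or size of plastids cannot be told apart from a change in RNA per plastid.

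Several of these genes are very short or overlap, and the sequences below show the cases that bear on how far a value can be assigned to a single gene. Positions are counted from 1 on the chloroplast genome and the letters are from the RefSeq TAIR10.1 assembly. In 37 of the 44 genes the gene in that assembly spans exactly the locus of the deposited TAIR10 table, and in all 44 the coding sequence ends in a stop codon. The genes ATCG00270 (psbD), ATCG00280 (psbC), ATCG00480 (atpB) and ATCG00470 (atpE) are among the other 7. At chloroplast:33696-33796 on the plus strand, the capitals mark the 53 bases that belong both to the end of psbD and to the start of psbC.
psbD to psbC: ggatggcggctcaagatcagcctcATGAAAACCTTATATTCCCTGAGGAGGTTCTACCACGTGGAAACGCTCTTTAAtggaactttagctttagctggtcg
At chloroplast:52636-52687 on the minus strand, the capitals mark the 4 bases in which the start codon of atpE meets the stop codon of atpB.
atpB to atpE: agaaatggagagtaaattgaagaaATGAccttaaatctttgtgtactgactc
The authors' table gives each of these pairs a shared locus and a value per gene.

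The shortest genes are shown whole, with the start and stop codons in capitals, because short genes had the highest levels and mostly the largest errors. They are petN (chloroplast:28089-28178, plus strand, 90 bases), petL (chloroplast:65712-65807, plus, 96 bases), psbT (chloroplast:74082-74183, plus, 102 bases) and psbM (chloroplast:28707-28811, minus, 105 bases).
petN: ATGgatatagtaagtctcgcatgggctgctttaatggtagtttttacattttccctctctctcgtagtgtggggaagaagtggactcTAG
petL: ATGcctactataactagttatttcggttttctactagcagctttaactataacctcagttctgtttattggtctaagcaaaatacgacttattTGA
psbT: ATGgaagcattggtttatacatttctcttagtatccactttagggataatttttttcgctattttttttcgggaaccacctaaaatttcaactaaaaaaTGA
psbM: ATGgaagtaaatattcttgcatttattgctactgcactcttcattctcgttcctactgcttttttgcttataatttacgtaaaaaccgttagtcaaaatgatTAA
Each encodes a single small membrane-spanning peptide of its complex.

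Of the 44 genes, 9 rose in cbe1 and 0 fell by the authors' Cuffdiff test. The 9 were psbD and psbC of photosystem II, psaA and psaB of photosystem I, petB of the cytochrome b6f complex, atpB, atpH and atpI of the ATP synthase, and ndhJ of the NDH complex. Their folds lay between 1.60 and 2.91. Among all 22303 tested genes 4.94% were called, 3.31% higher and 1.63% lower, against 20.5% higher and 0% lower of the 44. At an unadjusted p below 0.05, 14 of the 44 were higher and 0 lower, where the shares of all tested genes were 12.5% and 4.2%. The median log2 fold change of the 44 was 0.23, or 0.05 above the median of all genes, with 30 genes above 0 and 14 below.

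Relative to the median gene the 9 called changes ran from 0.50 for petB to 1.36 for atpB and ndhJ on the log2 scale. With the authors' statistic recentred on the median gene 7 of the 9 remained called higher and 0 of the 44 were lower, where 1.3% of all tested genes were higher and 3.02% lower. The calls of psbD and petB were lost (recentred q = 0.0589 and 0.237 by this Cuffdiff-based statistic).

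**Figure D1:**
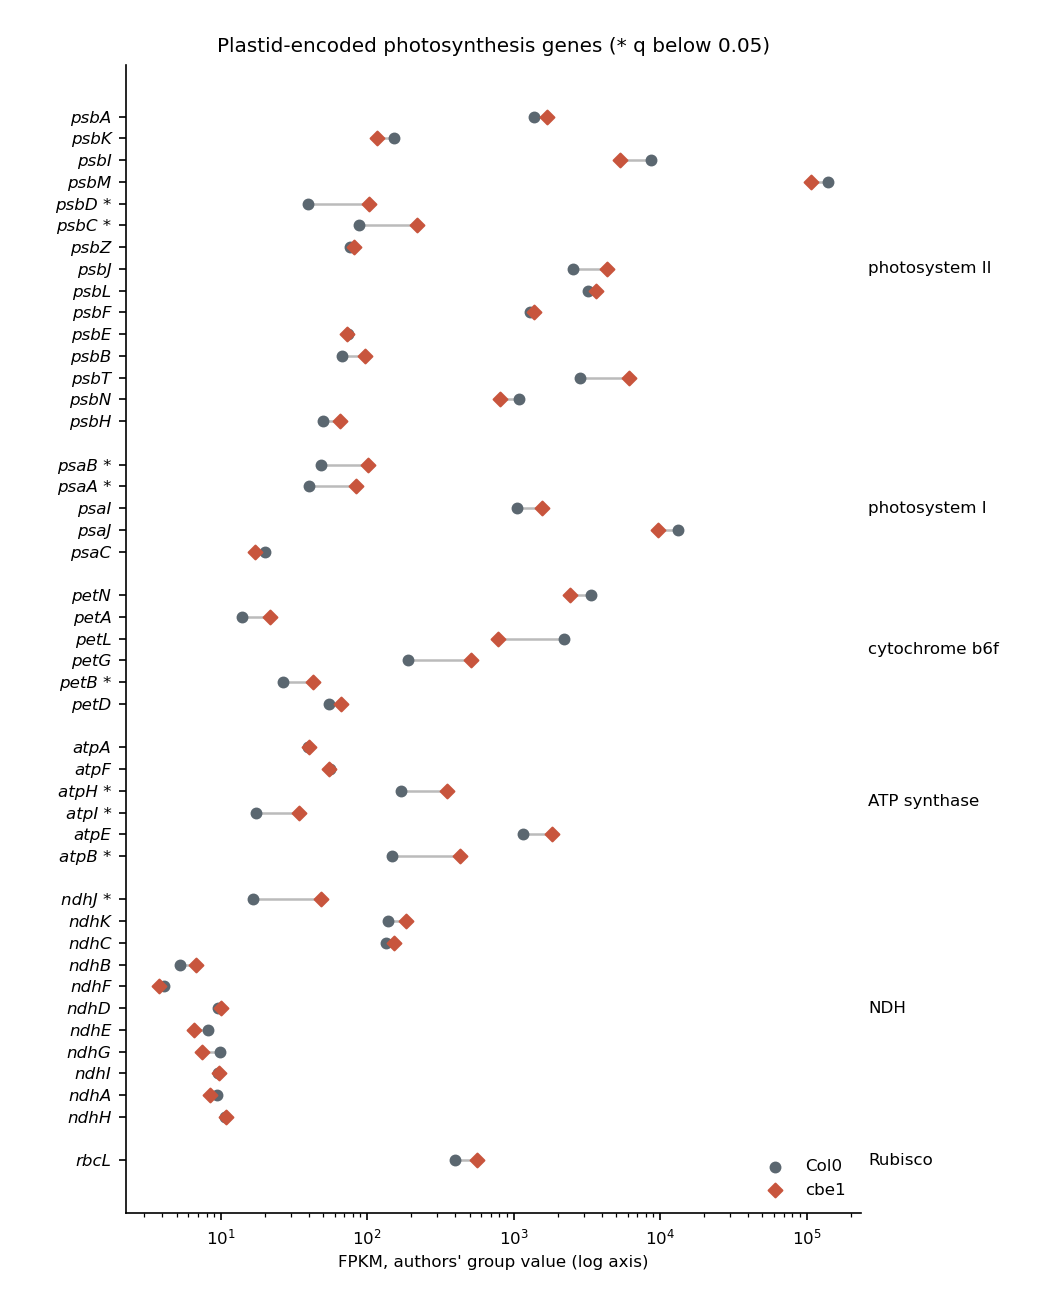
FPKM (log axis) of each of the 44 plastid genes in Col0 (circles) and cbe1 (diamonds), grouped by complex; an asterisk marks a q-value below 0.05. The values run from 4.08 FPKM for ndhF to 139134 FPKM for psbM in Col0, and the 9 called genes all have the cbe1 value on the right.

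In photosystem II, the water-splitting complex, 2 of 15 genes rose and 0 fell. The psbD gene, for the reaction centre protein D2, rose from 39.6 to 102.6 FPKM. Its neighbour psbC, for the inner antenna protein CP43, rose from 87.3 to 219.5 FPKM. The log2 fold changes were 1.37 (error 0.40) and 1.33 (error 0.23), where the authors' deposited table gives q = 0.0181 and 1.06e-06. The genes share the 53 bases printed above and a transcription unit, so they are not independent of each other. The third gene of that unit, psbZ, for a small peripheral subunit, had 76.2 and 81.1 FPKM.

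The other large photosystem II genes were not called. The psbA gene, for the reaction centre protein D1, had 1379 FPKM in Col0, the highest level there among the genes with at least 240 bases, and 1681 FPKM in cbe1, where atpE was higher. Its log2 fold change of 0.29 had a 95% interval from −0.26 to 0.83, which includes 0. The psbB gene, for the inner antenna protein CP47, had 66.9 and 96.9 FPKM, a log2 fold change of 0.54 that missed the threshold, at q = 0.0682 by the authors' deposited table. The cytochrome b559 genes psbE (73.4 and 72.6 FPKM) and psbF (1288 and 1378 FPKM) had nearly the same value in both genotypes. Their errors on the log2 scale were 0.33 and 0.96. The 95% interval of psbF, from −1.78 to 1.97, includes changes of several fold in either direction.

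The small subunit genes of photosystem II had values on both sides of 0, and none was called. The psbT gene, for a small subunit at the contact of the monomers, had 2851 and 6166 FPKM, and psbJ had 2531 and 4343 FPKM. Their log2 fold changes of 1.11 and 0.78 had errors of 0.85 and 0.64 and were not called. The psbI gene, for a small subunit beside D1, had 8677 and 5299 FPKM, and psbM, for a subunit at the dimer contact, 139134 and 107355 FPKM. The psbK gene had 153.0 and 117.1 FPKM, psbL 3238 and 3631 FPKM, and psbH, for a small phosphoprotein, 49.9 and 65.1 FPKM. The psbN gene lies on the strand opposite to psbT and psbH and had 1083 and 806.3 FPKM. The sources used here do not say whether counting used strand, so reads of psbN and of the unit across from it cannot be told apart.

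In photosystem I, 2 of 5 genes rose and 0 fell. Its large reaction centre proteins are encoded by psaA and psaB, which lie side by side and are transcribed together. The psaA gene (chloroplast:39605-41857) rose from 40.3 to 83.6 FPKM, and psaB (chloroplast:37375-39579) from 48.6 to 100.9 FPKM. The log2 fold changes of 1.05 and 1.06, each with an error of 0.19, were nearly equal, and the authors' deposited table lists q = 3.49e-06 and 3.99e-06. The psaC gene, for the iron-sulphur subunit that passes electrons to ferredoxin, had 20.1 and 17.2 FPKM and was not called (log2 −0.23, error 0.57). Of the small subunit genes, psaI had 1056 and 1555 FPKM and psaJ 13226 and 9676 FPKM, and neither was called.

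In the cytochrome b6f complex, which passes electrons between the photosystems, 1 of 6 genes rose and 0 fell. The petB gene, for cytochrome b6, rose from 26.7 to 42.7 FPKM (log2 0.68, error 0.22), and the authors' deposited table gives q = 0.0410. The petA gene, for cytochrome f, had 13.9 and 21.7 FPKM, a log2 fold change of 0.64 of about the same size that missed the threshold (q = 0.0678 in the authors' deposited table). The petD gene, for subunit IV, had 54.5 and 66.5 FPKM (log2 0.29, error 0.21). The small subunit genes had values on both sides of 0 with wide errors, and none was called. The petL gene had 2207 and 779.0 FPKM, petG 190.0 and 508.4 FPKM, and petN 3386 and 2440 FPKM. Their errors of 1.43, 2.54 and 1.07 on the log2 scale leave changes of several fold in these 3 genes undetectable.

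In the ATP synthase, 3 of 6 genes rose and 0 fell. The atpB gene, for the catalytic β subunit, rose from 147.9 to 430.3 FPKM, and had the largest log2 fold change of the 9 called genes with 1.54 (error 0.28, q = 7.08e-06 in the authors' deposited table). The overlapping atpE gene, for the ε subunit, had 1158 and 1835 FPKM and a log2 fold change of 0.66 (error 0.33), and the authors' deposited table, at q = 0.290, does not call it. The atpH gene, for the subunit of the membrane ring, rose from 171.4 to 351.2 FPKM, and atpI, for the membrane subunit a, from 17.5 to 34.1 FPKM. Their log2 fold changes of 1.04 and 0.96 were listed at q = 0.00161 and 0.00150 by the authors' deposited table. The last genes of the same unit were not called and had nearly the same value in both genotypes: atpF, for a stalk subunit, had 55.9 and 55.2 FPKM, and atpA, for the α subunit, 39.2 and 39.9 FPKM. The 95% intervals of atpH (0.56 to 1.51) and atpI (0.52 to 1.41) lay above those of atpF (−0.43 to 0.39) and atpA (−0.34 to 0.40); the difference itself was not tested.

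The NDH complex, which returns electrons from ferredoxin to the plastoquinone pool in cyclic electron flow, had 1 rise among 11 genes, and 0 fell. The ndhJ gene (chloroplast:48677-49153) rose from 16.6 to 48.2 FPKM, with a log2 fold change of 1.54 (error 0.27, q = 1.86e-06 in the authors' deposited table). It is the last gene of a unit of 3. The gene before it, ndhK, had 138.2 and 185.4 FPKM (log2 0.42), and the first, ndhC, 134.5 and 151.6 FPKM (log2 0.17), and neither was called. In Col0 the last gene was thus far below its partners in level, and in cbe1 less so.

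The other NDH genes had low levels outside the ndhC unit, and none was called. The ndhH, ndhA, ndhI, ndhG, ndhE and ndhD genes, which form a unit with psaC, had between 8.23 and 10.6 FPKM in Col0. Their log2 fold changes ran from −0.43 for ndhG to 0.07 for ndhD, whose coding sequence starts with ACG in the genome and is known to be edited to a start codon in the RNA, and none of the 7 genes of that unit, psaC included, had an unadjusted p below 0.05 by the Cuffdiff test. The ndhF gene (4.08 and 3.81 FPKM) shares its locus with ycf1.1, and ndhB (5.28 and 6.76 FPKM) has a second copy in the inverted repeat, ndhB.2 (5.28 and 6.77 FPKM), so reads can have been split between the copies. The median log2 fold change of the 11 genes was 0.03, or −0.15 relative to the median gene.

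The rbcL gene (chloroplast:54958-56397), for the large subunit of the carbon-fixing enzyme Rubisco, was at 400.6 FPKM in the wild type and 564.6 FPKM in the mutant. Its log2 fold change was 0.50 (error 0.22), and the authors' deposited table gives p = 0.0268 and q = 0.215. It lies next to atpB on the opposite strand, and relative to the median gene the log2 fold change of atpB was 1.36 and that of rbcL 0.32.

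Genes of the same transcription unit moved alike in some units and apart in others, and no difference within or between units was tested. Both genes of the psaA unit and both large genes of the psbD unit rose, while 0 of the 7 genes of the ndhH unit did. The atpI and ndhC units each held called and uncalled genes, with the called genes first in the atpI unit and last in the ndhC unit. In the psbB unit, which joins photosystem II and cytochrome b6f genes, all 5 log2 fold changes lay above 0, between 0.29 for petD and 1.11 for psbT, and petB alone was called. In the psbE unit the values lay between −0.02 and 0.78 and none was called. Both genes of the psbK unit lay below 0, at −0.39 and −0.71, and were not called. Genes of a unit share transcripts and are not replicates of each other, and the units were taken from general knowledge of the plastid genome.

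**Figure D2:**
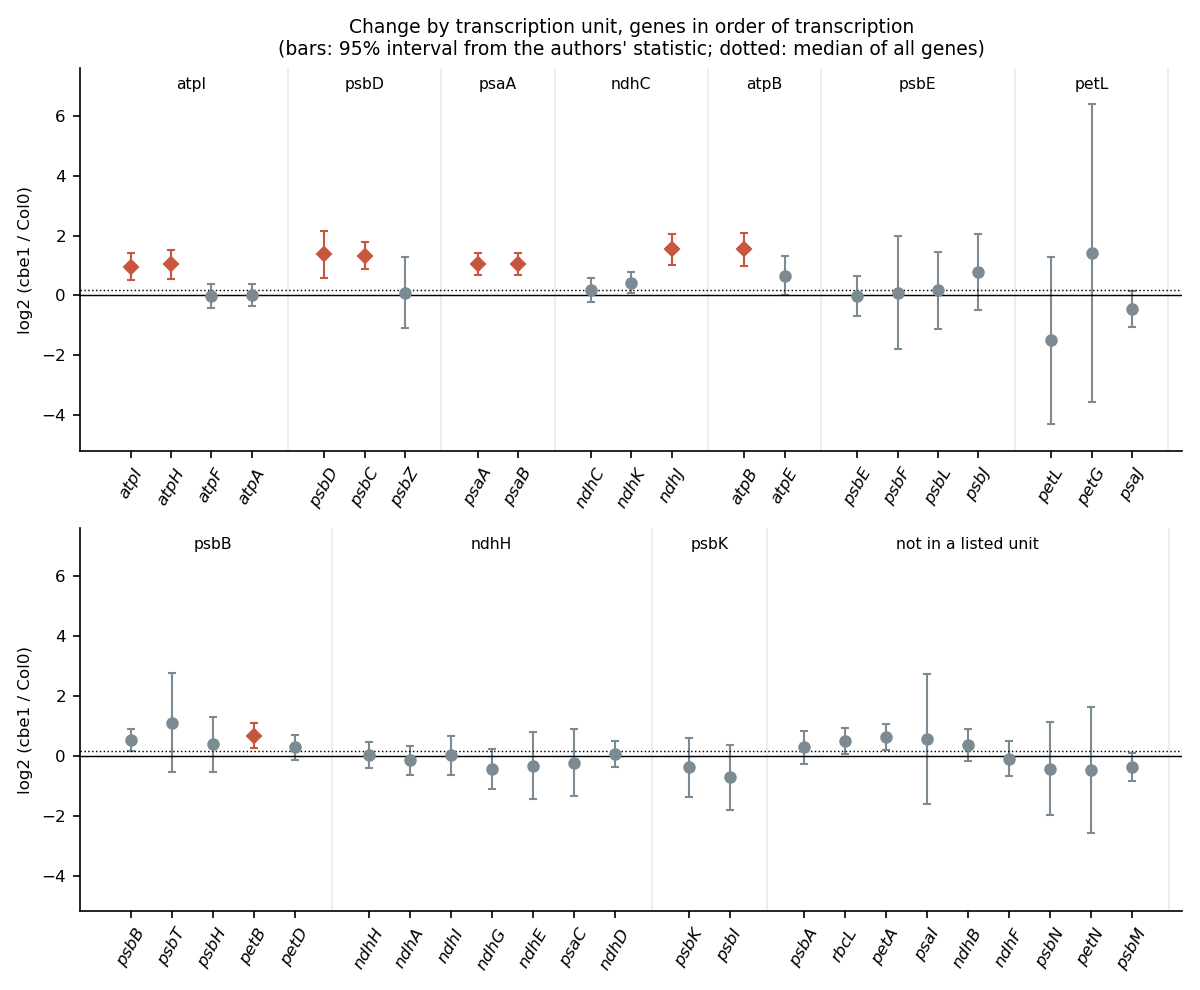
Log2 fold change of cbe1 over Col0 for the 44 genes, by transcription unit in order of transcription, with 95% intervals from the authors' statistic; diamonds mark q below 0.05 and the dotted line the median of all tested genes. The atpI, psbD, psaA, ndhC and atpB units hold 8 of the 9 called genes, and the 7 genes of the ndhH unit lie between −0.43 and 0.07.

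Short genes mostly had larger errors than long ones, with overlapping ranges. All 9 called genes had at least 246 bases, and 0 of the 15 genes of at most 222 bases were called or had an unadjusted p below 0.05 by the Cuffdiff test. The limit of 240 bases was set after seeing the values. The 15 short genes had a median error of 0.66 on the log2 scale, and the 29 longer ones 0.23. They also had the highest levels: their median in Col0 was 2207 FPKM, against 39.6 FPKM for the longer genes. The psbM gene alone made up 70.0% of the summed FPKM of all plastid protein-coding genes in Col0 and 65.4% in cbe1. The part of the length correction in these levels was not tested, and a sum over genes mostly shows the shortest. Over the 29 longer genes alone the median log2 fold change was 0.36, or 0.18 above the median gene.

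**Figure D3:**
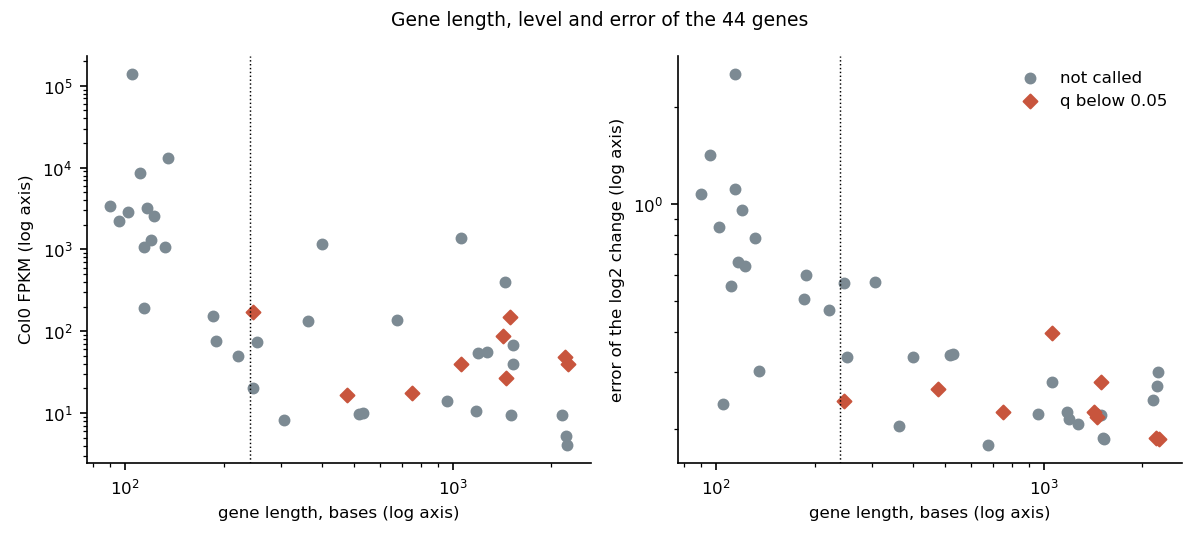
Left, Col0 level in FPKM, and right, the error of the log2 fold change, against gene length in bases for the 44 genes (log axes); diamonds mark q below 0.05 and the dotted line 240 bases. The genes under 240 bases have errors between 0.24 and 2.54, and the longer ones between 0.18 and 0.57.

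Among the longer genes, the called and uncalled ones overlapped in length and base composition. The 9 called genes had 246 to 2253 bases and a GC content of the coding sequence from 37.9% to 45.1%, with a median of 41.5%. The 20 uncalled ones had 246 to 2241 bases and 30.4% to 43.96%, with a median of 37.5%. Runs of A were also compared, since the libraries were made from poly(A) RNA. The longest run in the coding sequence had a median of 5 bases in both sets. The atpB gene holds the longest of all 44, with 10 bases at positions 47 to 56 of its coding sequence. It is shown in capitals within chloroplast:54076-54135 on the minus strand.
atpB: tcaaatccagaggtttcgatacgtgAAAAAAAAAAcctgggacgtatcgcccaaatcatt
The next longest runs, of 8 bases, were in petA and ndhF, which were not called. The part of these sequence features in the result was not tested.

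Other plastid genes did not share a single direction. Of 42 other protein-coding genes of the plastid 3 rose and 3 fell, and their median log2 fold change of 0.18 equalled that of all genes after rounding. The rises were in genes of the plastid ribosome: rps3 rose from 49.7 to 201.4 FPKM, rpl22 from 31.6 to 92.7 FPKM, and rpl14 from 85.9 to 206.5 FPKM. The falls, named after their values were seen, were in rpoC2, for a subunit of the plastid RNA polymerase, from 8.48 to 3.86 FPKM, and in both copies of the large gene ycf2, from 2.86 to 1.28 FPKM each. All 4 genes of the polymerase lay below 0, with a median of −0.32, or −0.50 relative to the median gene. Rescaling to TPM turns the −0.32 to 1.25 and the median of all genes to 1.74.

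Mitochondrial genes had mostly lower values in cbe1 on the deposited scale. Of 111 tested mitochondrial genes 18 fell and 0 rose (1 was higher at an unadjusted p below 0.05 by the Cuffdiff test). Of the same 111 genes 95 had the lower value in cbe1 and 16 the higher. The 102 above 0 in both genotypes had a median log2 fold change of −1.20, or −1.37 relative to the median gene. Rescaling to TPM turns the −1.20 to 0.37 and the median of all genes to 1.74. The largest called falls were in ATMG00030, from 1407 to 171.5 FPKM, and ATMG01380, from 8949 to 1327 FPKM.

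Plastid tRNA genes had values in both directions. Of 37 tested tRNA genes 22 had the lower value in cbe1 and 15 the higher, of which 12 are listed at 0 in Col0, and 1 of the 22 is listed at 0 in cbe1. The 24 above 0 in both genotypes had a median of −1.57, but this leaves out those listed at 0. Rescaling to TPM turns it to −0.0083 and the median of all genes to 1.74. One tRNA gene was called, ATCG00090 (trnS), which fell from 63603 to 12639 FPKM, while trnH, the most abundant in both genotypes and not called, was at 246363 and 163196 FPKM. Of the 3 tested rRNA genes whose locus matched RefSeq TAIR10.1 exactly, ATCG01160 fell from 5764 to 1026 FPKM (q = 0.0170 in the authors' deposited Cuffdiff table). Plastid rRNA genes without such a match are not counted. Both copies of the 4.5S rRNA had 21791 and 9471 FPKM and were not called, and the 16S and 23S rRNA genes are listed at 0 with the mark HIDATA. The part of these differences, and of the poly(A) selection, in the values of the 44 genes was not tested.

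The same complexes also hold subunits encoded in the nucleus. Of 46 tested nuclear genes for subunits of these complexes and of Rubisco 3 rose and 0 fell, and 0 were lower at an unadjusted p below 0.05 by the Cuffdiff test. Their median log2 fold change was 0.31, or 0.13 above the median gene. All 3 rises were in NDH genes: PNSL3 rose from 16.6 to 27.7 FPKM, PNSL4 from 39.9 to 61.4 FPKM, and PNSB1 from 53.0 to 78.6 FPKM. With the recentred statistic 0 of the 46 were called. None of the 12 photosystem I genes was called, and their log2 fold changes lay between −0.23 and 0.46, below the values of psaA and psaB. The difference between plastid and nuclear subunits was not tested.

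Nuclear genes for plastid transcription and RNA processing rose in 7 of 33 cases and fell in 0, with 0 lower at an unadjusted p below 0.05 by the Cuffdiff test. Their median log2 fold change was 0.44, or 0.26 above the median gene, and 31 of the 33 lay above 0. PAP1 (pTAC3), a protein bound to the plastid-encoded polymerase, rose from 8.37 to 17.2 FPKM (log2 1.04), at q = 5.12e-06 by the authors' deposited table. RPOTp, the nuclear-encoded plastid polymerase, rose from 3.10 to 5.54 FPKM (log2 0.84), and the plastid ribonuclease gene RNJ from 5.42 to 9.68 FPKM (log2 0.84). Of the 12 polymerase-associated proteins 4 rose, and of the 6 sigma factor genes 0 passed, although 3 were higher at an unadjusted p below 0.05 by the Cuffdiff test. With the recentred statistic 2 of the 33 were called.

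**Figure D4:**
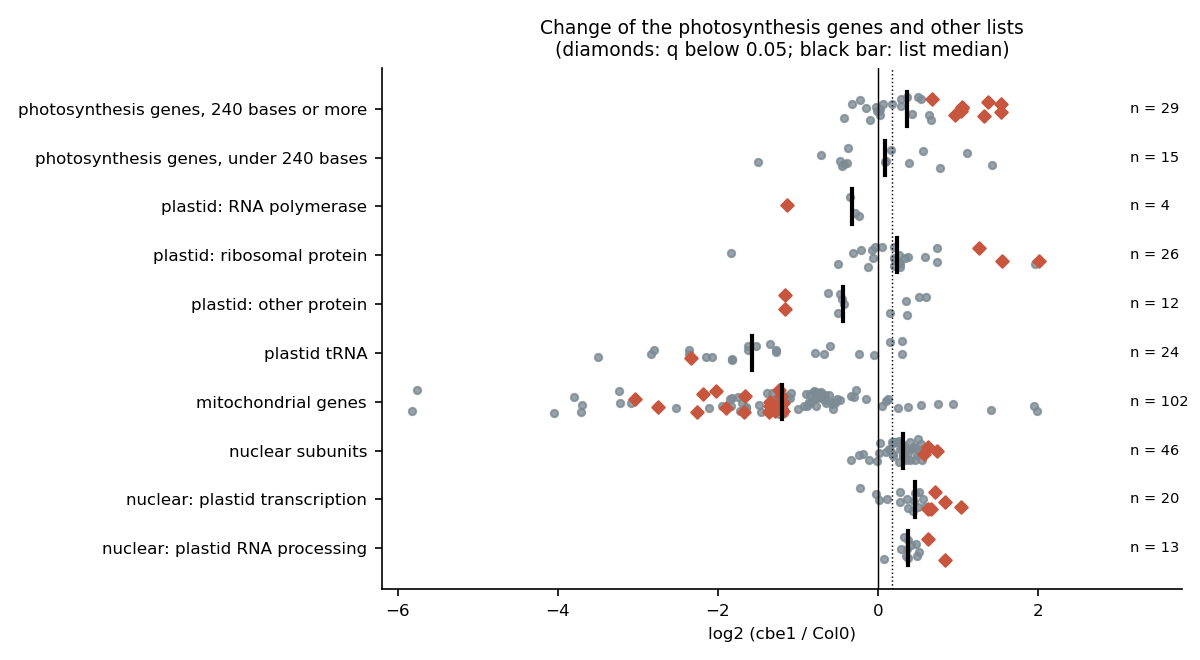
Log2 fold change of cbe1 over Col0 of the 44 plastid genes, split at 240 bases, and of the other gene lists; each point is a gene above 0 FPKM in both genotypes, diamonds mark q below 0.05, black bars the list medians and the dotted line the median of all tested genes. The photosynthesis genes of at least 240 bases have a median of 0.36, and the mitochondrial genes one of −1.20. Rescaling to TPM turns the −1.20 to 0.37 and the median of all genes to 1.74.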

How the data were processed

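Poly(A) RNA of 6 libraries was measured, 3 per genotype. The submitters' processing notes name TopHat, Cuffdiff and the TAIR10 build, without versions. For every gene the authors deposited a single FPKM per group, together with a p-value, a q-value and a test statistic, a score whose sign is opposite to the change. Library scaling between groups is unstated in the sources used here, and depth is unknown. For the 21932 tested genes above 0 in both groups, treating the statistic as a standard normal value returned the deposited p-value.

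Log2 fold changes were computed from the deposited FPKM without a pseudocount. Locus starts were raised by 1. Groups follow the sample titles, and p and q are those over all tested genes. The recentred statistic subtracts the median log2 fold change, divides by the error, and adjusts p by Benjamini-Hochberg over all 22303 tested genes; it was tested on simulated data. The text names all 44 members, CBE1, and from each other list its largest calls, at most 3, and where a list has fewer than 2 calls also its most abundant tested genes; of the mitochondrial genes 2 are named. Members, lists, units and tests were chosen with earlier results of these data known. Names and sequences came from RefSeq TAIR10.1. Mitochondrial identifiers were not matched to names. Alternatives were a stricter q-value, a minimum change or level, pseudocounts, members alone on their locus, TPM and centring. Python 3.11.15 with numpy 2.4.6, pandas 2.3.3, scipy 1.17.1 and matplotlib 3.10.9 was used.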

Additional observations from a re-analysis of the deposited data

How the results depend on the processing

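No paired analysis was possible because the deposited table holds no value per library, and for the same reason no library could be left out. The count of 9 rises and 0 falls among the 44 genes was 7 and 0 at a q-value below 0.01, 7 and 0 when a log2 change of 1 or more was required, 6 and 0 among genes alone on their locus, and 7 and 0 with either recentring. The median of the 44 was 1.79 and that of all genes 1.74 after rescaling to TPM, by construction. The ATP synthase median of 0.81 was 0.50 over genes alone on their locus, and the photosystem I median of 0.56 was 1.05 over genes of at least 240 bases. With the recentred statistic 5 other plastid genes were lower, and 0 nuclear subunits and 2 plastid expression factors higher; at a q-value below 0.01 these last counts were 0 and 3. The 44 genes held 92.2% of the plastid protein-coding FPKM in Col0 and 91.6% in cbe1. Over all plastid genes the shares were 27.6% and 36.2%, and over protein-coding loci of at least 240 bases 60.3% and 65.0%. The alternatives with 240 bases and with centring on other plastid genes were added after seeing the data. Of 62 alternative values 50 stayed within the median error, 1.5 times the count or 5 percentage points. That rule is loose, since the error is a median over single genes and counts of 0 that stayed at 0 are among the 50. By it the median of the 44 counted as unchanged when it went from 0.23 to 0.05 relative to the median gene. In genes under 240 bases the large errors limit what could be detected.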

Other observations

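The plastid ribosomal protein genes that rose lie together in 1 cluster with neighbours that were not called. In the order in which they are transcribed, rps19 had 217.7 and 282.9 FPKM in Col0 and cbe1, rpl22 31.6 and 92.7 FPKM, rps3 49.7 and 201.4 FPKM, rpl16 514.8 and 502.8 FPKM, and rpl14 85.9 and 206.5 FPKM. The rpl16 gene, between the called genes, thus had nearly the same value in both genotypes. At the end of the cluster, rpoA, for a subunit of the plastid RNA polymerase, had 95.5 and 75.0 FPKM and was not called. The rpl22 and rps3 genes share a locus, and these names were chosen after their values were seen.

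Summed over genes of at least 240 bases, the ATP synthase genes made up 22.9% of the FPKM of plastid protein-coding loci of that length in Col0 and 28.5% in cbe1. The photosystem I genes made up 1.56% and 2.09%, the photosystem II genes 23.7% and 22.6%, the NDH genes 5.12% and 4.66%, and rbcL 5.76% and 5.86%. Single genes weighed heavily in these sums. The uncalled atpE alone made up 16.6% in Col0 and 19.0% in cbe1. In photosystem II, psbA made up 19.8% and 17.4%, while psbD had 0.57% and 1.06% and psbC 1.25% and 2.28%. These shares do not depend on how the genotypes were scaled to each other, and they carry no error.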
